A study of Mus musculus with 6 samples.

Results

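The 9 melanocyte lineage genes Mitf, Tyr, Tyrp1, Dct, Pmel, Mlana, Kit, Sox10 and Ednrb were followed in the RNA of mouse epidermal keratinocyte cultures, where they report on how much melanocyte RNA each library and each pair of replicates held. They were chosen by name, as a list, from the 43629 genes of the count table, and all 9 passed the filter on low counts. Epidermis was taken at postnatal day 3 from 3 control and 3 Dnmt1Δ/Δep mice. Its keratinocytes were grown for 5 days according to the labels, while a figure legend of the paper gives a shorter time. The medium had 0.05 mM calcium and 8% chelated serum, and poly(A) RNA was sequenced. Dnmt1Δ/Δep mice carried Keratin 5-Cre and a pair of floxed Dnmt1 alleles (f/f), so that the maintenance DNA methyltransferase DNMT1 was deleted where Keratin 5, a gene of basal keratinocytes, had been active. Controls were f/f or f/+ without Cre, which of these for each mouse not being given, and all mice were of a mixed C57BL/6J and 129SV background and labelled female. Dnmt1 loss in the melanocytes of a culture was not measured.

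Counts on genes summed to between 53433121 and 115526598 per library. Dnmt1 lay between 324 and 394 CPM (counts scaled to a common library size) in the control libraries and between 49.7 and 54.3 CPM in the Dnmt1Δ/Δep libraries. Libraries with the same replicate number shared a flow-cell lane, and their deviations from the group means correlated positively in all 3 pairs. Control replicate 1 stood apart from the other controls. Each of the 9 genes was lowest there among the 6 libraries, which was so for 24.0% of the 16829 genes tested, and so the changes are also given without it and by pair.

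Melanocytes are pigment cells of neural crest origin that enter the epidermis as melanoblasts before birth and move on into the hair follicles. They can be carried along when epidermal cells are put into culture. The transcription factors SOX10 and MITF hold their identity, the receptors KIT and EDNRB let them migrate, survive and divide, and MITF switches on the genes for the melanosome and its enzymes. Tyrosinase (Tyr) takes the first and limiting step from tyrosine to melanin, dopachrome tautomerase (Dct) and Tyrp1 act further along the same route, Pmel builds the fibrils on which melanin settles, and Mlana is a small protein of the melanosome membrane.

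Pmel, Tyrp1, Dct and Mlana were the most abundant of the 9 genes per unit of length. In RPKM, which is CPM per kilobase of exon, Pmel had a level of 61.7 ± 30.4 in control and 111.0 ± 21.2 in Dnmt1Δ/Δep cultures (SD, n = 3). Tyrp1 followed with levels of 42.4 ± 18.9 and 86.9 ± 15.2 RPKM, Dct with 17.8 ± 6.55 and 34.2 ± 2.88 RPKM, and Mlana with 17.2 ± 5.92 and 32.0 ± 1.56 RPKM. Pmel exceeded Tyrp1 within each of the 6 libraries, although their ranges over a group overlapped, and Dct and Mlana could not be ordered beyond the spread between libraries. The level of Mitf was 3.60 ± 0.854 RPKM in control and 4.28 ± 0.443 RPKM in Dnmt1Δ/Δep cultures, that of Tyr 3.41 ± 1.70 and 4.91 ± 1.13 RPKM, and that of Sox10 2.41 ± 1.19 and 4.58 ± 0.484 RPKM. The receptors were lowest, Ednrb at 1.63 ± 0.775 and 3.42 ± 0.364 RPKM and Kit at 0.679 ± 0.281 and 1.45 ± 0.230 RPKM. Mitf, Tyr and Sox10 lay within each other's spread in the control libraries, and Kit lay below Ednrb without overlap only in the Dnmt1Δ/Δep libraries. Pmel, Tyrp1, Dct and Mlana were above the other 5 genes in both groups without overlap.

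The promoters of the 3 enzyme genes are shown because they hold the same short element, although the fitted change of Tyr was smaller than those of Tyrp1 and Dct. The sequences are 30 bases from RefSeq (GRCm38.p6), read 5′ to 3′ on the gene's strand, with the letters CATGTG, the core of the M-box to which MITF is known to bind, in capitals. They lie at chr4:80834155-80834184 (Tyrp1, plus strand), chr7:87493516-87493545 (Tyr, minus strand) and chr14:118052379-118052408 (Dct, minus strand), and the capitals begin 46, 21 and 150 bases before the start that RefSeq gives. The Tyrp1 gene of GENCODE, whose positions are given for the genes below, starts further upstream and takes in its element.
Tyrp1: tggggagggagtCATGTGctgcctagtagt
Tyr: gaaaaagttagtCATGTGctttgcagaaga
Dct: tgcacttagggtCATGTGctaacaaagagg
The letters next to the core were the same in all 3, and the run GTCATGTGCT was present in 61 of 32851 promoters (0.186%), these 3 included. The core alone, searched on both strands in 300 bases around the start, was found in 14.2% of the promoters. The Dct promoter held a second match, which reads as CACATG on the gene's strand. The windows of Kit, Mitf and Ednrb held 0 matches, which says only that these letters are not in those windows, and those of Pmel, Mlana and Sox10 were not analysed here.

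The summed level of Tyr, Tyrp1, Dct, Pmel and Mlana served as a measure of pigment cell RNA. It was 204, 486 and 536 CPM in control replicates 1, 2 and 3 and 646, 793 and 873 CPM in Dnmt1Δ/Δep replicates 1, 2 and 3. Every Dnmt1Δ/Δep library was above every control library, and the lowest and highest controls lay further apart (2.63-fold) than the lowest and highest Dnmt1Δ/Δep libraries (1.35-fold). The group means were 409 ± 179 and 771 ± 115 CPM (SD, n = 3), a ratio of 1.89. Control replicate 1 was 2.38-fold below control replicate 2 and 2.63-fold below control replicate 3. As a share of all gene counts, the 5 genes took from 0.0200% in control replicate 1 to 0.0892% in Dnmt1Δ/Δep replicate 3. In bulk RNA, fewer cells of a type and less RNA per cell cannot be told apart, which holds for all levels given here.

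**Figure D1:**
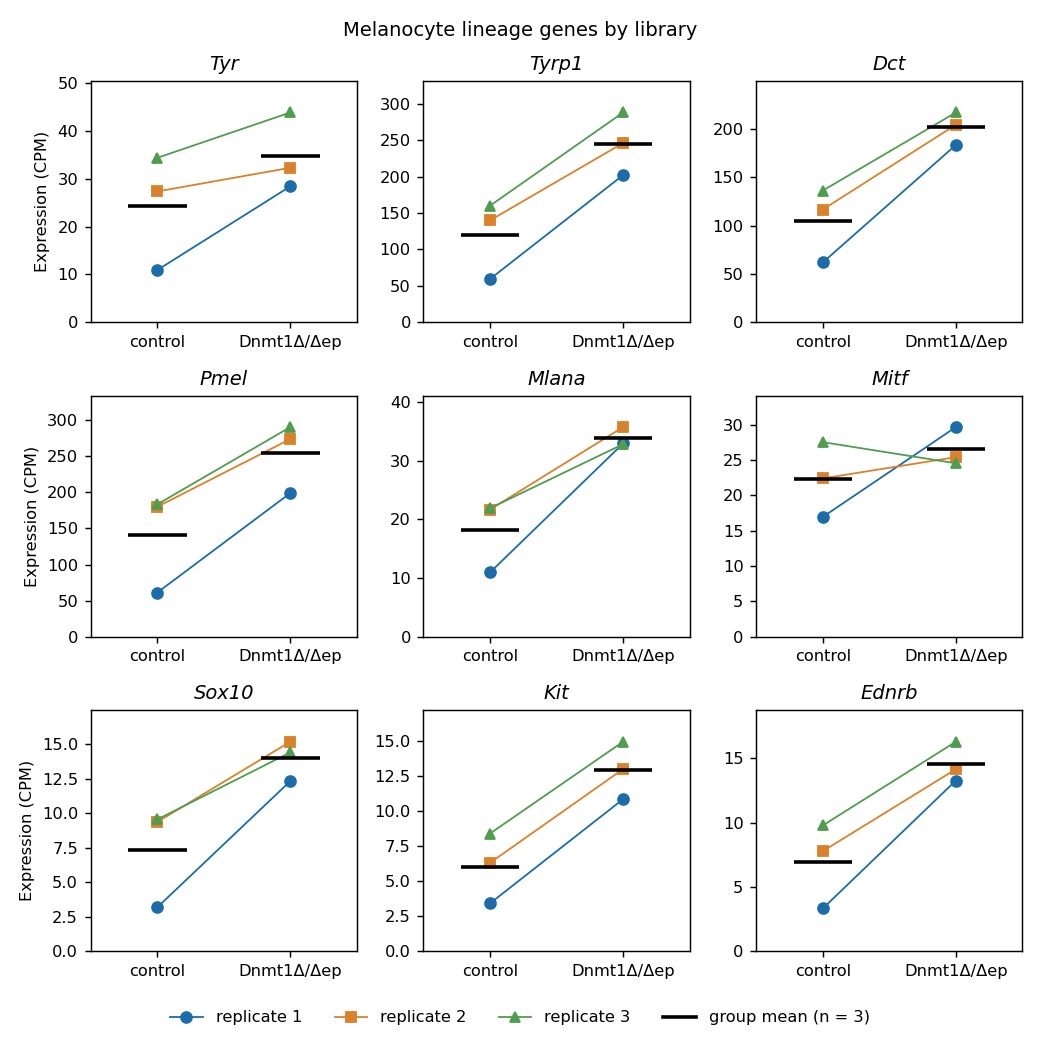
Expression of the 9 genes in CPM (vertical axes, from 0) in control and Dnmt1Δ/Δep libraries. Points are libraries, lines join replicates of the same number and black bars are group means (n = 3), and control replicate 1 is the lowest point in each of the 9 panels.

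Among the enzymes, Tyrp1 (ENSMUSG00000005994, chromosome 4, 80834123 to 80851719) had 59.3, 140 and 160 CPM in control cultures, and Dnmt1Δ/Δep cultures had 202, 246 and 288 CPM, in the order of replicates 1, 2 and 3, which is kept throughout. All Dnmt1Δ/Δep libraries were above all controls. Dct (ENSMUSG00000022129, chromosome 14, 118012790 to 118052244) had 61.8, 117 and 136 CPM in control and 184, 205 and 217 CPM in Dnmt1Δ/Δep libraries, again without overlap. For Tyr (ENSMUSG00000004651, chromosome 7, 87424771 to 87493512) the values were 10.9, 27.4 and 34.4 CPM in control and 28.4, 32.3 and 43.9 CPM in Dnmt1Δ/Δep cultures. The groups overlapped for Tyr, since control replicate 3 exceeded Dnmt1Δ/Δep replicates 1 and 2.

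Of the melanosome proteins, Pmel (ENSMUSG00000025359, chromosome 10, 128704195 to 128720238) had 61.1, 180 and 183 CPM in control and 199, 274 and 290 CPM in Dnmt1Δ/Δep libraries. Controls 2 and 3 were nearly alike, and the lowest Dnmt1Δ/Δep library was just above them. Of the Pmel exon sequence, 6.06% (139 bases) is shared with Dgka and Cdk2 on the other strand, whereas the exons of the other 8 genes overlap no other gene. Mlana (ENSMUSG00000024806, chromosome 19, 29697824 to 29708634) had 11.0, 21.7 and 21.9 CPM in control and 32.9, 35.7 and 32.8 CPM in Dnmt1Δ/Δep libraries, the narrowest range of the 9 genes within the Dnmt1Δ/Δep group (1.09-fold).

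The transcription factors differed from each other. Sox10 (ENSMUSG00000033006, chromosome 15, 79154908 to 79165240) had 3.18, 9.37 and 9.55 CPM in control and 12.3, 15.2 and 14.4 CPM in Dnmt1Δ/Δep libraries, so that its groups did not overlap. Mitf (ENSMUSG00000035158, chromosome 6, 97807052 to 98021349) had 16.9, 22.4 and 27.5 CPM in control and 29.7, 25.4 and 24.5 CPM in Dnmt1Δ/Δep libraries. Its groups overlapped, and in the third pair the control was the higher library. Mitf also had the smallest gap between control replicate 1 and the mean of the other controls, 1.47-fold, while the other 8 genes were from 1.99-fold (Mlana) to 2.97-fold (Pmel and Sox10) lower there.

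Both receptors were higher in every Dnmt1Δ/Δep library than in any control. Kit (ENSMUSG00000005672, chromosome 5, 75574916 to 75656722), the receptor for stem cell factor, had 3.43, 6.32 and 8.41 CPM in control and 10.9, 13.0 and 14.98 CPM in Dnmt1Δ/Δep libraries. Ednrb (ENSMUSG00000022122, chromosome 14, 103814625 to 103844402), a receptor for endothelins, had 3.33, 7.79 and 9.79 CPM in control and 13.3, 14.2 and 16.3 CPM in Dnmt1Δ/Δep libraries. In all, 7 of the 9 genes had their Dnmt1Δ/Δep libraries above all controls, as did 18.2% of all genes tested.

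Tested over all genes with edgeR's quasi-likelihood test and Benjamini-Hochberg adjustment, 0 of the 9 genes were called upregulated and 0 downregulated at the thresholds of 0.05 for the adjusted p and 1 for the size of the log2 fold change, beside 6.03% and 0.392% of the 16829 genes. The log2 fold change was positive for all 9, with a median of 0.93, whereas the median of all genes tested was −0.00. At an unadjusted p of 0.05, 6 of the 9 were higher, as were 15.8% of all genes, and 0 were lower. DESeq2 called 3 of the 9 upregulated, Tyrp1, Kit and Ednrb, beside 6.84% of the genes it adjusted. The largest fitted changes were those of Kit at 1.10 in log2 (standard error 0.32, adjusted p = 0.075 in edgeR), Ednrb with 1.07 (standard error 0.36, adjusted p = 0.12) and Tyrp1 with 1.04 (standard error 0.34, adjusted p = 0.11). Dct had a log2 fold change of 0.94 (adjusted p = 0.072 in edgeR), Sox10 of 0.93 (adjusted p = 0.20), Mlana of 0.90 (adjusted p = 0.072) and Pmel of 0.85 (adjusted p = 0.25). Tyr, with 0.53 (standard error 0.39, adjusted p = 0.49 in edgeR), and Mitf, with 0.25 (standard error 0.19, adjusted p = 0.49), had the smallest.

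With the replicate number as a block, which compares libraries of 1 lane with each other, edgeR called 4 of the 9 genes upregulated, beside 6.97% of all genes. Tyrp1 then had a log2 change of 1.14 (standard error 0.21, adjusted p = 0.026 in edgeR with the block), Kit of 1.18 (standard error 0.19, adjusted p = 0.020), Ednrb of 1.19 (standard error 0.27, adjusted p = 0.047) and Dct of 1.02 (standard error 0.19, adjusted p = 0.027). Pmel, with 0.99 (adjusted p = 0.049 in edgeR with the block), and Mlana, with 0.96 (adjusted p = 0.043), passed the adjusted p but not the fold change threshold. Sox10 had 1.07 (adjusted p = 0.073 in the same test), Tyr 0.65 (adjusted p = 0.14) and Mitf 0.27 (adjusted p = 0.41). With the block and without both libraries of replicate 1, the 4 genes passed the adjusted p at log2 fold changes of 0.73 to 0.93, under the fold change threshold. Without both libraries of replicate 2, their log2 fold changes were 1.10 to 1.33 and the adjusted p, 0.068 to 0.13, was not passed.

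Without control replicate 1, the fitted changes were smaller and their errors too. The median log2 fold change of the 9 genes was then 0.63, and 6 of them, Tyrp1, Dct, Mlana, Kit, Sox10 and Ednrb, passed the adjusted p in edgeR, as did 9.78% of all genes in this direction. Their log2 fold changes lay between 0.56 for Sox10 (adjusted p = 0.044 in edgeR) and 0.82 for Kit (adjusted p = 0.041), so that 0 of the 9 reached the fold change threshold. Mlana had the lowest adjusted p, 0.0099 in edgeR, at a log2 fold change of 0.63. Pmel then had 0.48 (adjusted p = 0.11 in edgeR), Tyr 0.18 (adjusted p = 0.64) and Mitf 0.09 (adjusted p = 0.75).

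**Figure D2:**
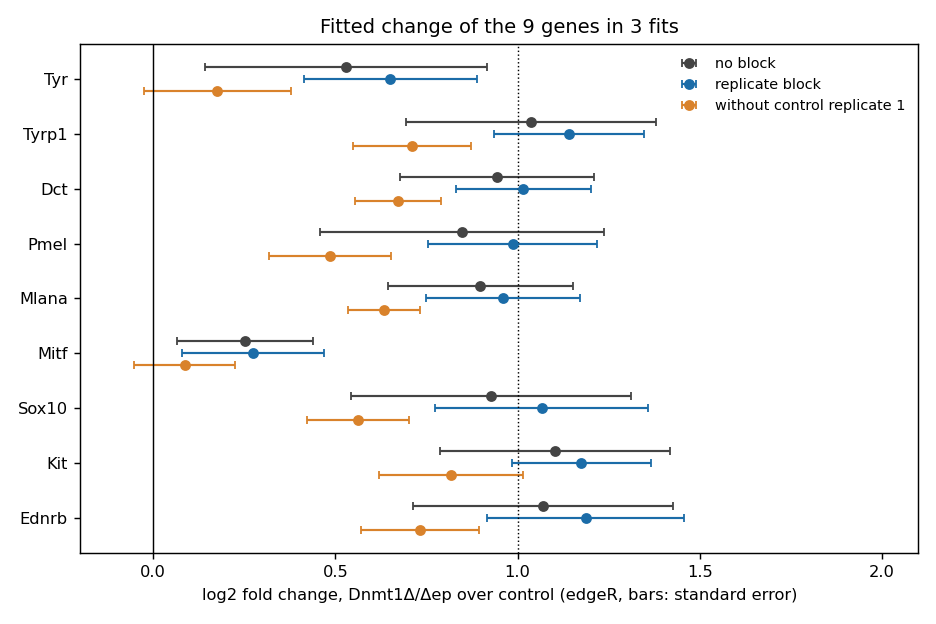
Fitted log2 fold change (horizontal axis, Dnmt1Δ/Δep over control, edgeR) of the 9 genes without a block, with the replicate block and without control replicate 1. Bars are standard errors and the dotted line is the fold change threshold of 1, which 0 of the 9 genes reach without control replicate 1, while Mitf and Tyr are the lowest in each fit.

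The 3 pairs of replicates gave unequal ratios. The summed level of the 5 pigment genes was 3.17-fold higher in the Dnmt1Δ/Δep library of pair 1, and 1.63-fold higher in both pair 2 and pair 3, a mean log2 ratio of 1.02 ± 0.55 (SD, n = 3 pairs). Each of the 9 genes had its largest ratio in pair 1, where the log2 ratios went from 0.81 for Mitf to 2.00 for Ednrb. In pairs 2 and 3, Tyrp1 had log2 ratios of 0.82 and 0.85, Dct of 0.81 and 0.67, Kit of 1.04 and 0.83, and Ednrb of 0.86 and 0.74. Those of Tyr were 0.24 and 0.35, and those of Mitf 0.18 and −0.17. Mitf was the only 1 of the 9 genes with a ratio below 0 in any pair.

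**Figure D3:**
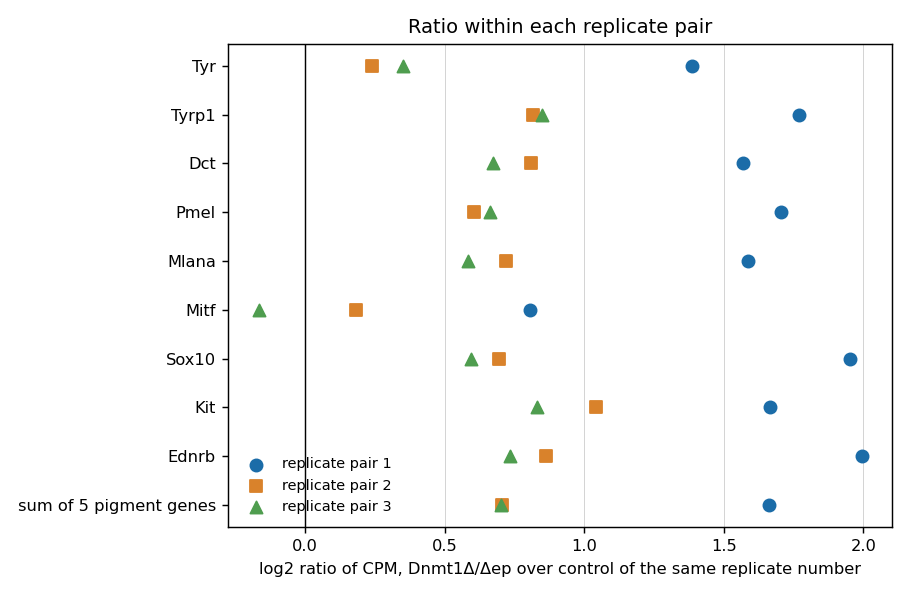
Log2 ratio of CPM (horizontal axis), Dnmt1Δ/Δep over the control of the same replicate number, for the 9 genes and for the summed 5 pigment genes. Pair 1 (circles) is the highest for each gene, at 1.66 for the sum against 0.71 and 0.70 in pairs 2 and 3.

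The proportions among the 5 pigment genes varied less than their levels, by between 1.147-fold (Tyrp1) and 1.57-fold (Tyr) over the 6 libraries. Of the counts of the 5 pigment genes, Tyrp1 took 29.3% ± 0.551 in control cultures and 31.8% ± 1.08 in Dnmt1Δ/Δep cultures (SD, n = 3), Pmel 33.7% ± 3.58 and 32.9% ± 1.90, Dct 26.6% ± 3.29 and 26.4% ± 1.82, and Mlana 4.64% ± 0.661 and 4.46% ± 0.669. The groups overlapped for Pmel, Dct and Mlana. Tyr took 5.34%, 5.63% and 6.42% in the controls and 4.399%, 4.08% and 5.03% in those of Dnmt1Δ/Δep mice, below all controls, while the share of Tyrp1 was above all controls. Per 100 counts of the 5 pigment genes there were between 1.30 and 1.72 counts of Kit, between 1.56 and 1.93 of Sox10 and between 1.60 and 2.06 of Ednrb, each with overlap between the groups.

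Mitf departed most from these proportions. The gene also has isoforms of other cell types, which counts per gene do not separate. Per 100 pigment gene counts its controls held 8.30, 4.61 and 5.13 counts, and the Dnmt1Δ/Δep libraries held 4.59, 3.20 and 2.81. It was highest in control replicate 1, where the pigment genes were lowest, and lowest in Dnmt1Δ/Δep replicate 3, where they were highest, a range of 2.95-fold over the 6 libraries against 1.147-fold for Tyrp1. For Mitf, Tyr and Tyrp1 the exact two-sided permutation test gave p = 0.1, the smallest that 3 libraries against 3 allow, and 0.3 after Benjamini-Hochberg adjustment over the 9 genes. With counts taken relative to the summed pigment genes in edgeR, Mitf came to −0.77 in log2 (standard error 0.53, adjusted p = 0.19) and Tyr to −0.36 (standard error 0.53, adjusted p = 0.54). The median of all genes tested was −1.15 in that fit, below both values. The other 7 genes lay between −0.06 (Mlana) and 0.17 (Ednrb) in that fit, each with a standard error of more than 0.5. Of these, Tyrp1, Dct, Pmel and Mlana are themselves part of the sum, as is Tyr. Their values near 0 are thus in part fixed in advance.

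**Figure D4:**
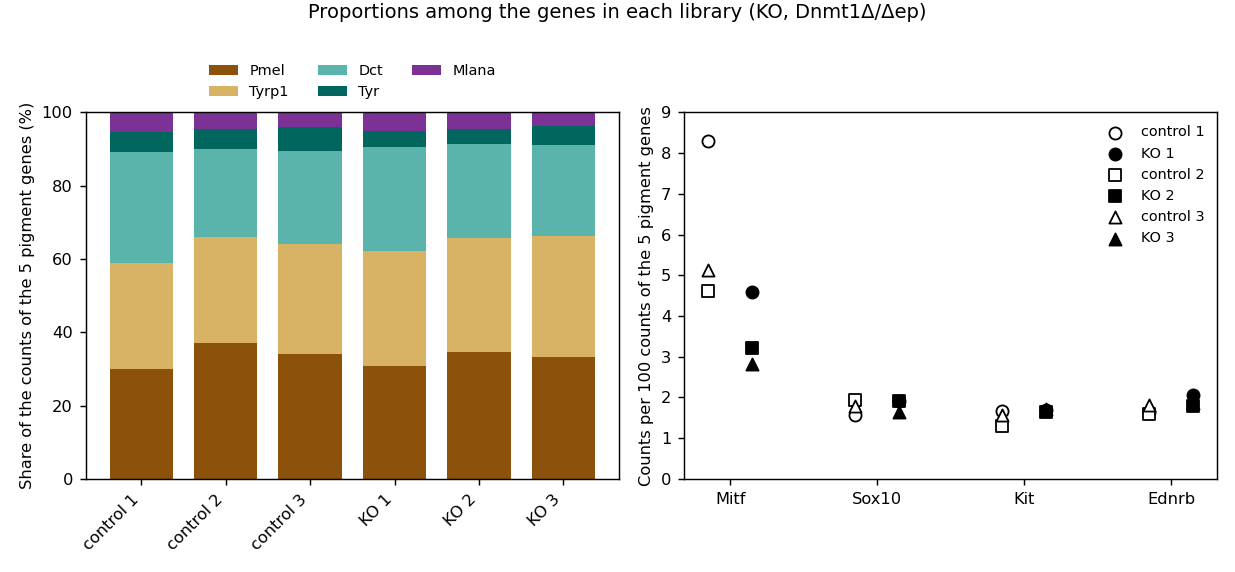
Left, share of the counts of the 5 pigment genes (%) taken by each of them in each library. Right, counts of Mitf, Sox10, Kit and Ednrb per 100 counts of the 5 pigment genes, open symbols for control and filled symbols for Dnmt1Δ/Δep (KO) libraries, where Mitf goes from 8.30 in control replicate 1 down to 2.81 and the other 3 genes stay between 1.30 and 2.06.

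Other genes of the pigment cell were read from lists of their own. Of 16 further genes of melanosomes, pigment and the neural crest lineage, 1, Cdh19, was called upregulated and 0 downregulated, with and without the block. Of all genes, 6.97% and 6.03% were called upregulated in these fits. Of the 16, 8 had their Dnmt1Δ/Δep libraries above all controls, as did 18.2% of all genes. Their median log2 fold change was 0.72. Mc1r, the receptor for melanocortins, passed the adjusted p (0.038 in edgeR) at a log2 fold change of 0.89. Gpnmb, a melanosome glycoprotein and the most abundant of them over the 6 libraries, had 57.2, 114 and 125 CPM in control and 175, 190 and 184 CPM in Dnmt1Δ/Δep libraries, a log2 fold change of 0.89 (adjusted p = 0.084 in edgeR, and 0.042 at 0.97 with the block). Rab38, the most abundant in the controls and a GTPase that brings enzymes to the melanosome, had 129, 160 and 181 CPM in control and 99.8, 120 and 106 CPM in Dnmt1Δ/Δep libraries, all below the controls. Its log2 fold change was −0.53 (adjusted p = 0.062 in edgeR, and 0.032 at −0.52 with the block), and Mreg, at −0.38 (adjusted p = 0.085, and 0.043 with the block), was the other gene of the list with a negative value. Rab38, Mreg and Rab32 were also the 3 genes of the 16 that were not lowest in control replicate 1. Which cells made their RNA was not tested.

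Cdh19, which encodes a cadherin found in cells of the neural crest lineage, had few or no counts in the controls. Its controls held 0, 13 and 38 counts, and the Dnmt1Δ/Δep libraries held 851, 472 and 2272. Pair 1 gave a ratio of at least 450-fold, with a limit of 3 counts in place of the 0 in its control, and pairs 2 and 3 gave 40.9-fold and 27.2-fold. The log2 fold change was 5.73 (standard error 1.11, adjusted p = 0.021 in edgeR), 5.94 with the block (adjusted p = 0.015) and 5.09 without control replicate 1 (adjusted p = 0.012). Unlike the summed pigment genes, Cdh19 was lower in Dnmt1Δ/Δep replicate 2 than in the other Dnmt1Δ/Δep libraries.

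**Figure D5:**
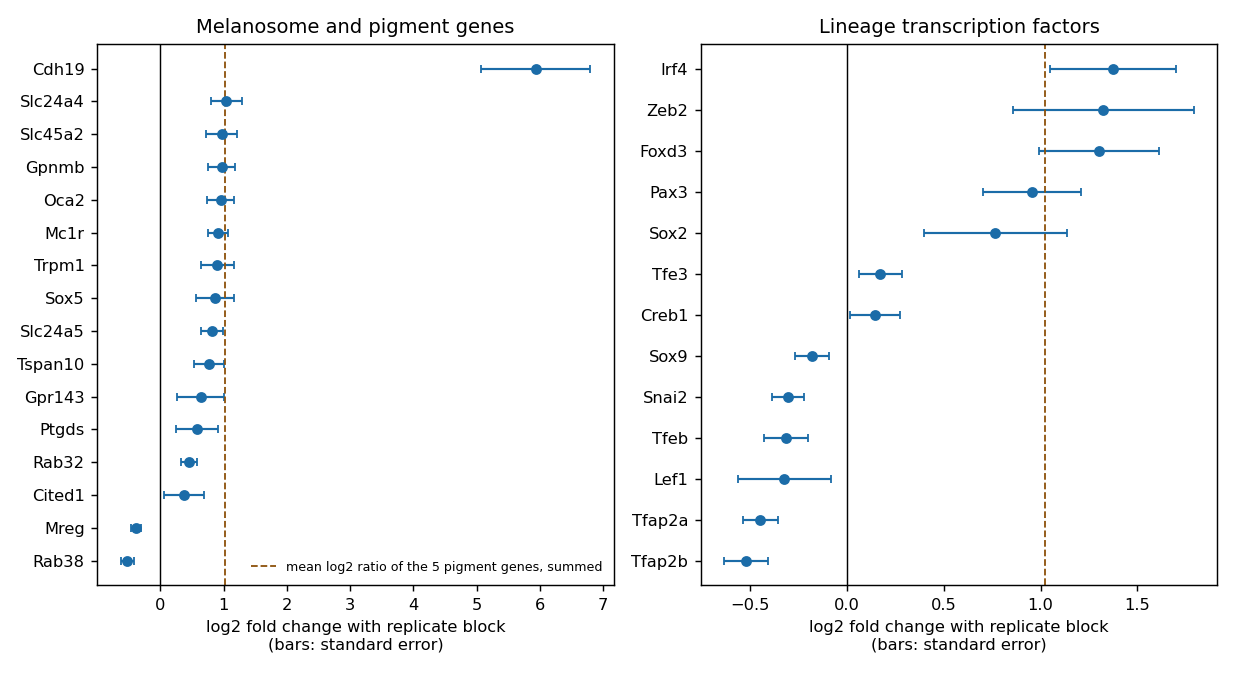
Fitted log2 fold change with the replicate block (horizontal axes, edgeR, bars standard errors) of 16 further melanosome, pigment and neural crest genes (left) and of 13 transcription factors of the lineage (right). The dashed line is the mean log2 ratio of the summed 5 pigment genes, 1.02, to the right of which Cdh19 stands far out at 5.94, while Rab38 and Mreg lie below 0.

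Genes that carry melanosomes but are active in many cell types had a median log2 fold change of 0.08. Of 20 of them, edgeR called 0 in either direction, with 2 higher and 0 lower at an unadjusted p of 0.05 (15.8% and 7.79% of all genes), and DESeq2 called 1, Mlph (6.84% of all genes). Myo5a, the motor of melanosome transport and the most abundant of these genes, had 306, 396 and 534 CPM in control and 322, 288 and 414 CPM in Dnmt1Δ/Δep libraries, with overlap. With the block, Mlph, the link between RAB27A and myosin Va, was called at a log2 fold change of 1.38 (adjusted p = 0.027 in edgeR, against 0.052 without the block), from 5.02, 11.8 and 12.8 CPM in control to 22.04, 25.7 and 24.1 CPM.

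Among 13 further transcription factors of the lineage, 0 were called in either direction by edgeR, with 4 higher and 2 lower at an unadjusted p of 0.05 (15.8% and 7.79% of all genes), and the median log2 fold change was 0.16. DESeq2 called 3 upregulated, Zeb2, Foxd3 and Irf4, beside 6.84% of the genes it adjusted. Sox9, the most abundant and also a factor of hair follicle keratinocytes, had 367, 349 and 336 CPM in control and 331, 335 and 268 CPM in Dnmt1Δ/Δep libraries. Irf4, which acts with MITF on the Tyr gene, had 0.539, 1.74 and 1.82 CPM in control and 2.67, 3.31 and 3.64 CPM in Dnmt1Δ/Δep libraries and was called with the block at a log2 fold change of 1.37 (adjusted p = 0.0496 in edgeR, against 0.14 without it). Of 7 receptors of melanoblasts, 1, Adgrb1, was called upregulated (log2 fold change 3.16, adjusted p = 0.019 in edgeR), beside 6.03% of all genes. It went from at most 0.0745 CPM in the controls to between 0.381 and 0.520 CPM. Ngfr, the low-affinity receptor for nerve growth factor, was called with the block at 2.26 (adjusted p = 0.019 in edgeR), beside 6.97% of all genes. Met, the most abundant receptor of this list over the 6 libraries and one of keratinocytes too, had 280, 185 and 162 CPM in control and 283, 271 and 289 CPM in Dnmt1Δ/Δep libraries.

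Genes of signalling to melanocytes were measured in the same libraries. Which cells of the cultures made their RNA was not tested. Of 11 such genes tested, 0 were called in either direction by edgeR, with 4 higher and 0 lower at an unadjusted p of 0.05 (15.8% and 7.79% of all genes), and the median log2 fold change was 0.11. DESeq2 called 1, Fgf7, beside 6.84% of the genes it adjusted. Ece1, the enzyme that activates endothelins and the most abundant of them, had 716, 600 and 490 CPM in control and 677, 655 and 619 CPM in Dnmt1Δ/Δep libraries. Kitl, the ligand of KIT, had 41.7, 32.5 and 64.4 CPM in control and 49.8, 31.8 and 59.4 CPM in Dnmt1Δ/Δep libraries, a log2 fold change of 0.03 (adjusted p = 0.98 in edgeR). Edn1, a ligand of EDNRB, had 74.1, 54.6 and 48.4 CPM in control and 115, 122 and 102 CPM in Dnmt1Δ/Δep libraries. Its groups did not overlap, and its log2 fold change of 0.94 passed the adjusted p (0.016 in edgeR) but not the fold change threshold, whereas without control replicate 1 it passed both (1.13, adjusted p = 0.0027 in edgeR). Edn3, the other ligand with a role in melanoblasts, had at most 3 counts in each library. Fgf7 was called with the block at a log2 fold change of 2.76 (adjusted p = 0.042 in edgeR), but its groups overlapped, since Dnmt1Δ/Δep replicate 2 had 0.139 CPM and the other Dnmt1Δ/Δep libraries 1.86 and 1.203 CPM. Kitl and Edn1 were named for their receptors after their values were seen.

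Markers of other cell types that express some of these genes were set beside them. KIT is also a receptor of mast cells, whose markers Cpa3, Mcpt4, Tpsab1 and Fcer1a had 0 counts in all 6 libraries and Tpsb2 at most 3. The 10 mast cell genes summed to between 0.745 and 1.11 CPM in control and between 1.5 and 1.73 CPM in Dnmt1Δ/Δep libraries. Against 6.03% of all genes, 1 of 4 tested was called upregulated, Mrgprb2 (log2 fold change 2.46, adjusted p = 0.0042 in edgeR). Its level was between 0.805 and 1.02 CPM in the Dnmt1Δ/Δep libraries. Hdc, the most abundant of the 10 in the controls, had between 0.428 and 0.749 CPM there.

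SOX10 and EDNRB also occur in Schwann cells and EDNRB in vessels. Of 11 Schwann cell and glia markers tested, 0 were called by edgeR without the block. At an unadjusted p of 0.05, 4 were higher and 0 lower (15.8% and 7.79% of all genes). DESeq2 called 2, Ngfr and Foxd3, beside 6.84% of the genes it adjusted. With the block, S100b (log2 fold change 1.21, adjusted p = 0.046 in edgeR), Ngfr and Mal (1.55, adjusted p = 0.0022) were called, beside 6.97% of all genes. Mbp, the most abundant of the list over the 6 libraries, had between 104 and 158 CPM. Of 8 endothelial markers tested, Pecam1 (log2 fold change 1.89, adjusted p = 0.0075 in edgeR) and Cdh5 (4.11, adjusted p = 0.0097) were called upregulated, and Tie1 also with the block (2.43, adjusted p = 0.0084), without control replicate 1 (3.09, adjusted p = 0.030) or by DESeq2. Over all genes, 6.03% were called upregulated, 6.97% with the block and 6.84% of those that DESeq2 adjusted. The median log2 fold change was 0.81 for the Schwann cell and glia list, 0.83 for the endothelial list and 1.18 for the 4 mast cell genes tested. The 10 endothelial genes summed to between 15.3 and 28.8 CPM in control and between 26.6 and 34.1 CPM in Dnmt1Δ/Δep libraries. Egfl7 was the most abundant on average over the 6 libraries, with between 8.23 and 10.5 CPM, and Cldn5 had at most 3 counts. The part of these cells in the levels of Sox10 and Ednrb was not tested.

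Markers of other cells of the dermis and of the keratinocytes themselves were summed in the same way. The 10 fibroblast genes, led by Fbln1, summed to between 72.0 and 95.0 CPM in control and between 67.5 and 109 CPM in Dnmt1Δ/Δep libraries. Fbln1 alone had 50.3, 62.2 and 56.3 CPM in control and 38.9, 50.9 and 51.3 CPM in Dnmt1Δ/Δep libraries. Its log2 fold change was −0.26 (adjusted p = 0.34 in edgeR), whereas 9 of the 10 genes had positive values, with a median of 0.75 over the list. By edgeR without the block or by DESeq2, 0 of 10 were called. At an unadjusted p of 0.05, 3 were higher and 0 lower (15.8% and 7.79% of all genes). Mfap5 was called with the block (log2 fold change 3.59, adjusted p = 0.032 in edgeR, beside 6.97% of all genes) or without control replicate 1 (4.98, adjusted p = 0.0099). Of 6 smooth muscle and pericyte genes tested, Notch3 being the most abundant over the 6 libraries, Acta2 was called upregulated (log2 fold change 2.09, adjusted p = 0.033 in edgeR, beside 6.03% of all genes). The median of the 6 was 0.64, and the sums of the list were between 147 and 168 CPM and between 184 and 284 CPM. The leukocyte genes summed to between 0.275 and 1.02 CPM and between 2.58 and 4.55 CPM, with a median log2 fold change of 2.67 over the 3 tested. Of these 3, Itgam and Csf1r were called, beside 6.03% of all genes. Csf1r was not called with the block (adjusted p = 0.027 in edgeR, and 0.053 with it) and Itgam not without control replicate 1. The medians of these lists of other cells thus lay between 0.64 and 2.67, beside 0.93 for the 9 genes, and their part in the levels of the 9 genes was not tested. The 10 keratinocyte genes, led by Krt5, were far more abundant, at between 31688 and 35573 CPM in control and between 24225 and 24733 CPM in Dnmt1Δ/Δep libraries. None of these (0 of 10) was called by edgeR, with 5 lower (7.79% of all genes were) and 0 higher at an unadjusted p of 0.05. Krt1 and Krt10 were called downregulated by DESeq2, and by edgeR without control replicate 1, at log2 fold changes of −2.80 (adjusted p = 0.00046) and −1.96 (adjusted p = 0.0033). Krt5 (log2 fold change −0.50, adjusted p = 0.038 in edgeR), Krt14 (−0.61, adjusted p = 0.028) and Col17a1 (−0.55, adjusted p = 0.035) passed the adjusted p with all 6 libraries.

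Control replicate 1 also differed from the other controls in Krt1. This gene, for a keratin of suprabasal keratinocytes, had 53.2, 356 and 530 CPM in the controls, and Dnmt1Δ/Δep cultures had 66.1, 59.2 and 65.5 CPM. In Krt1, control replicate 1 lay with the Dnmt1Δ/Δep libraries, whereas in the pigment genes it lay on the far side of the other controls. The part of the state of the keratinocytes in the pigment gene levels was not tested.

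Ranked by likeness to the mean log2 level of the 5 pigment genes over the 6 libraries, the 10 most similar of 13300 further genes (mean count of 50 or more) had Pearson correlations of 0.992 or above. They were Slc24a4, Slc45a2, Slc24a5, Ncald, Lyst, Dnajc16, Irf4, Slc36a1, Slc6a17 and Eya1. The first 3 encode ion and solute transporters of pigment cells, and 5 of the 10 (those 3, Lyst and Irf4) stood on the lists above. Slc24a4 had 2.01, 5.11 and 5.42 CPM in control and 6.73, 8.45 and 8.78 CPM in Dnmt1Δ/Δep libraries. Among the genes outside the 5, Sox10, Ednrb and Kit had correlations of 0.993, 0.992 and 0.978, and Mitf had 0.820. These are descriptions over 6 libraries, of which pairs share a lane and 3 each a genotype, so that any gene with the same order of libraries comes out alike.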

How the data were processed

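Poly(A) RNA of 3 control and 3 Dnmt1Δ/Δep keratinocyte cultures had been sequenced, and libraries were grouped by their labels. The authors aligned reads with STAR, and HTSeq gave the uniquely mapped reads of each gene. The deposited values are raw counts, and GRCm38 is the build named in the submitters' processing notes. The 5 entries that name no gene (8.73% to 12.9% of counts) were left out. Of the other deposited tables, the repeat counts and the authors' comparisons (means, fold changes and p-values) were not used.

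Counts were tested over all genes with edgeR's quasi-likelihood test (version 4.0.16 in R 4.3.3, TMM, filterByExpr with minimum counts of 10 and 15, Benjamini-Hochberg), without a block, which the paper's methods do not mention, with thresholds of 0.05 for the adjusted p and 1 for the size of the log2 fold change. Standard errors, in log2, divide the absolute log2 change by the square root of F. CPM use TMM-scaled library sizes, and RPKM divide CPM by the exon length of GENCODE M21. Alternatives were a replicate block, DESeq2 1.42.0, other scalings and filters, and fits without single libraries. Tables and figures used Python 3.11.15, pandas 2.3.3, scipy 1.17.1 and matplotlib 3.10.9.

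The replicate numbers pair the libraries: same-numbered libraries shared a lane in the file headers, and their deviations from the group means correlated at 0.431, 0.279 and 0.300 over 16829 genes. The labels do not say that pairs were littermates, and p-values measure the spread between these libraries. Limits from low counts cover counting error only, since reads carry no molecular identifiers.

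The 9 genes and the gene lists were chosen with earlier results of these data known. Named are the 9 genes, the most abundant and the called members of each list and the 10 most similar genes. Further genes were named after their values were seen: Mc1r, Rab38, Mreg, Rab32, Kitl, Edn1, Edn3, Hdc, Krt14, Col17a1, Krt1, Krt10, genes called only by DESeq2 and the markers at or near 0. Symbols matched 42462 of 43629 identifiers (97.3%), and Asip and Trdc were not analysed here.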

Additional observations from a re-analysis of the deposited data

How the results depend on the processing

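The number of the 9 genes called upregulated was 0 in edgeR and moved to 4 with the replicate block, 3 with DESeq2 and 2 without a filter on low counts (Kit and Ednrb). It was between 0 and 2 when 1 library was left out, the 2 being Dct and Kit without control replicate 3. With the block it was 6 without both libraries of replicate 3, and 0 without both of replicate 1 (log2 fold changes below 1) or of replicate 2 (adjusted p above 0.05). None (0) was called downregulated in any of these fits. Of 162 log2 fold changes of the 9 genes under 18 alternatives on the CPM scale, 160 were positive, the others being those of Mitf without replicate 1 in both groups (−0.0079, and −0.0018 with the block). Relative to the summed pigment genes, values below 0 were reached by Mitf (−0.77, and −0.75 with the block), Tyr (−0.36 and −0.37), Dct (−0.012 and −0.0069), Pmel (−0.037 and −0.034) and Mlana (−0.059 and −0.060). The median of all genes was −1.15 there, and −1.02 with the block, and Tyr, Dct, Pmel and Mlana are part of the sum. The block is part of the pairing by lane and changed the calls of Tyrp1, Dct, Kit and Ednrb with all libraries, and those of Pmel and Mlana too without both libraries of replicate 3. The log2 ratio of the summed pigment genes was 0.92, and 1.66 in pair 1 alone. It lay between 0.59 without control replicate 1 and 1.16 without control replicate 3.

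Over all genes, edgeR called 1014 upregulated and 66 downregulated, DESeq2 1393 and 122, edgeR without a filter 1294 and 107 and with a minimum of 1 RPKM 393 and 35. With 1 library left out, these numbers were between 559 and 1183 and between 15 and 180, and without replicate 2 in both groups 204 and 4. Fits without both libraries of a number, and those relative to the pigment genes with the block, were chosen after seeing the data. The causes were not tested. The log2 ratios of the summed pigment genes in pairs 2 and 3, 0.71 and 0.70, lay below the fold change threshold of 1.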
